A study of Mus musculus with 4 samples.

Results

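The Hox genes encode homeodomain transcription factors that mark position along the body. They were followed here in mouse embryonic fibroblasts (MEFs), connective tissue cells grown out of embryos. Members were all probe sets whose platform annotation gave exactly 1 symbol made of Hox, a cluster letter (a to d) and a number. This gave 37 probe sets for 31 genes, of 22690 probe sets on the array, of which 22626 are not controls, and of 12393 genes read by a probe set with 1 symbol. RNA came from 4 samples, each read by 1 Affymetrix MOE430A array. In the 2 mTert samples, titled mTert 1 and mTert 2, the cells had received the retroviral vector pBabePuro carrying mTert, the catalytic subunit of mouse telomerase. In the 2 control samples, titled control 1 and control 2, they had received the same vector empty, so that all 4 samples had been through retroviral transfer. The insert of this vector is driven by the viral promoter, which is not specific to a cell type. The labels give no strain, embryonic stage, part of the embryo, sex or passage, and leave unsaid what the numbers 1 and 2 stand for and whether separate cultures were used. All p-values below are therefore measured against the scatter of these 4 samples alone, part of which may be technical.

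Mammalian Hox genes lie in 4 clusters, HoxA to HoxD, and genes with the same number in different clusters are paralogues. Low-numbered genes are switched on early and reach far forward in the embryo, whereas high-numbered genes are switched on later, toward the tail and at the tips of the limbs. Fibroblasts keep much of the Hox pattern of the site they came from, in culture as well, so that a Hox profile reads as a record of anatomical origin. Hox proteins bind DNA together with TALE homeodomain cofactors of the Pbx, Meis and Pknox families. Polycomb and Trithorax complexes hold Hox genes in their silent or active state.

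The RefSeq gene table (assembly GRCm38.p6) lists 39 mouse Hox genes in order along chromosomes 6 (HoxA), 11 (HoxB), 15 (HoxC) and 2 (HoxD). Of the 11, 10, 9 and 9 genes of these clusters, 9, 9, 6 and 7 had a member probe set. The other 8 were not analysed here. The neighbours Hoxd13, Hoxd12 and Hoxd11 and the more distant Hoxd8 lie in one cluster but gave different readings on these arrays. Hoxd13, Hoxd11 and Hoxd8 were called present on all 4 arrays, and Hoxd12 on none. Their promoter windows are printed for that reason, as RefSeq gives them in build GRCm38.p6, all on the plus strand and 5′ to 3′. Each window has 300 bases, of which the last 50 lie after the gene's start. They are chr2:74667975-74668274 (Hoxd13), chr2:74674763-74675062 (Hoxd12), chr2:74682073-74682372 (Hoxd11, which also has an upstream start) and chr2:74704365-74704664 (Hoxd8). Capitals mark the motifs searched on both strands, TATAAA (the core of the TATA box) and TGATTNAT (a paired Pbx and Hox site, N being any base).
Hoxd13: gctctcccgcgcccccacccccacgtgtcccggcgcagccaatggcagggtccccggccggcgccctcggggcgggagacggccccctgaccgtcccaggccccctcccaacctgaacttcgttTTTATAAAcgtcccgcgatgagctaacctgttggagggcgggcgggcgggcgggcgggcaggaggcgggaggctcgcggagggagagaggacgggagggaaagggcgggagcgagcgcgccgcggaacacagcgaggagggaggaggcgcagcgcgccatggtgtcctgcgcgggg
Hoxd12: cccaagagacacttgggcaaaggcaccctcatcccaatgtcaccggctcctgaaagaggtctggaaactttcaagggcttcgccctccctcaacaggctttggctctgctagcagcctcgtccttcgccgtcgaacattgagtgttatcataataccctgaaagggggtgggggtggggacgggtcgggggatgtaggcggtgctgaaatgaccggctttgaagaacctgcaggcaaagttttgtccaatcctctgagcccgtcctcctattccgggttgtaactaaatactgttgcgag
Hoxd11: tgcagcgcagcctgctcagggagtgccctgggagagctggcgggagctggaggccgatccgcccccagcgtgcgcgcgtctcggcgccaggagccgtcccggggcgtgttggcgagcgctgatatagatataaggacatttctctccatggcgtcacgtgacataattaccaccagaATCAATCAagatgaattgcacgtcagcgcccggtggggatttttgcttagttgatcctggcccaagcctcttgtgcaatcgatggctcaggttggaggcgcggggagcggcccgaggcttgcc
Hoxd8: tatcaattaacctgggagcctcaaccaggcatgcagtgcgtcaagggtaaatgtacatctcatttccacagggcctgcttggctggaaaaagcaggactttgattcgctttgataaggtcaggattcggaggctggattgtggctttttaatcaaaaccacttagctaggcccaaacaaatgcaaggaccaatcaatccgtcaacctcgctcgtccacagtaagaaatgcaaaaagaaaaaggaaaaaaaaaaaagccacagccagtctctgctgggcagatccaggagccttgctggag

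The Hoxd13 window held TATAAA on both strands in overlapping positions, the Hoxd11 window held TGATTNAT, and the Hoxd12 and Hoxd8 windows held neither motif. Of the 20 windows of 18 member genes in the table, 2 held TATAAA (Hoxa10 and Hoxd13) and 2 held TGATTNAT (Hoxa2 and Hoxd11). Of all 32851 promoter windows of that length, 13.6% held TATAAA and 3.22% held TGATTNAT. The 4 printed windows also differed in CpG pairs, with 37 in Hoxd13, 13 in Hoxd12, 25 in Hoxd11 and 6 in Hoxd8. The median was 14.5 CpG pairs over the 20 member windows and 7 over all windows. These counts describe the sequence and say nothing of what binds there.

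Each array carried 11681 to 12298 present calls, or 51.6% to 54.4% of the probe sets that are not controls, and the median signal lay between 210.15 and 224.1. Control 1 was recorded with 5 µg of labelled cRNA and the other 3 arrays with 15 µg each, and every array went through a wash module of its own. The transgene's gene, Tert, had signals of 1164.4 and 845.6 in mTert 1 and 2, both present, against 128 and 84.7 in control 1 and 2, both absent. All 12 fibroblast marker genes examined were called present on all 4 arrays. The arrays numbered 2 also held more signal for macrophage markers than the arrays numbered 1.

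The cells had a restricted Hox profile among the genes measured. Most high-numbered genes of HoxA and HoxD with a member probe set were detected, and most measured genes of HoxB and HoxC were not. In paralogue groups 9 to 13, HoxC was read only by Hoxc9 and Hoxc13. A probe set was counted as detected when called present on at least 2 of the 4 arrays. Of the 37 Hox probe sets, 11 (29.7%), for 11 genes, were detected, against 54.8% of all probe sets that are not controls. Present calls on all 4 arrays were made for 9 Hox probe sets (24.3%), against 48.4% of all. By cluster, 5 of 12 probe sets were detected in HoxA, 1 of 10 in HoxB, 1 of 8 in HoxC and 4 of 7 in HoxD. Each array called 10 or 11 Hox probe sets present.

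By position within the clusters, 7 of the 14 probe sets of paralogue groups 9 to 13 were detected (50%), against 4 of the 23 of groups 1 to 8 (17.4%). The share over all probe sets that are not controls was 54.8%. Groups 1 to 8 lay below that share and groups 9 to 13 near it. HoxA and HoxD supplied all 7, with 4 of 5 in HoxA and 3 of 5 in HoxD, while the 2 probe sets of HoxB and the 2 of HoxC in these groups were absent on all 4 arrays. In groups 1 to 8 the detected probe sets were those of Hoxb1, Hoxa2, Hoxc8 and Hoxd8. Paralogue groups 3 to 7, which pattern the neck, the forelimb level and the upper trunk, had no detected probe set among 3, 5, 3, 4 and 2 measured. A call depends on the probes as well as on the RNA, so an absent call says only that the signal was not above background at that probe set. These are counts of probe sets and not a test of one cluster against another.

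**Figure D1:**
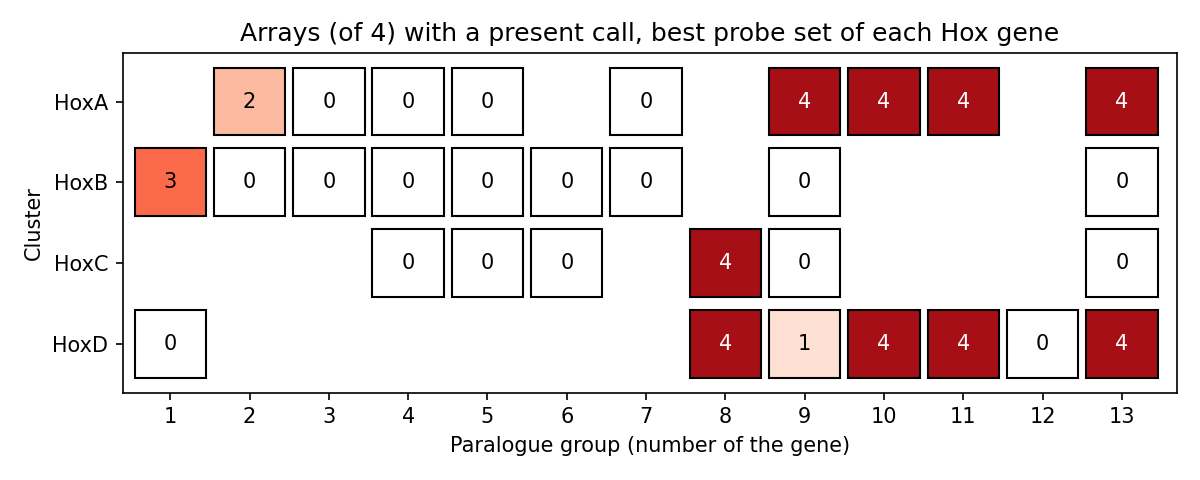
Number of arrays, of 4, with a present call for the best probe set of each Hox gene, by cluster (rows) and paralogue group (columns). White boxes with 0 are genes called present on no array, places with no box hold no gene analysed here, and the 9 boxes with 4 are Hoxa9, Hoxa10, Hoxa11, Hoxa13, Hoxc8, Hoxd8, Hoxd10, Hoxd11 and Hoxd13.

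Among the most posterior genes, Hoxd13 and Hoxa13, which pattern the digits and the urogenital outlet, were both present on every array. Hoxd13 had signals of 918.8 and 1051.4 in mTert 1 and 2, against 920.9 and 1074.8 in control 1 and 2. Hoxa13 had signals of 200.6 and 194 in mTert 1 and 2, against 175.8 and 210 in control 1 and 2. Neither gene separated the constructs. The other 2 genes of group 13 with a probe set, Hoxb13 and Hoxc13, were absent throughout, with signals of 2.1 to 5 for Hoxb13 and of 29.4 to 79.7 for Hoxc13. Hoxd12, whose promoter is printed above, was absent on all 4 arrays, with signals of 77.6 and 102.4 in mTert 1 and 2 and of 89.7 and 71.3 in control 1 and 2.

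Hoxa11 and Hoxd11 together shape the forearm and the kidney. Hoxa11 had signals of 633.6 and 633.9 in mTert 1 and 2, against 552.2 and 589.3 in control 1 and 2. Both mTert arrays lay above both controls, and they differed less from each other than the controls did. Hoxd11 had 352.4 and 407.5 in mTert 1 and 2, against 284.9 and 375.9 in control 1 and 2, which overlap. A separate probe set for the antisense transcript Hoxa11os, outside the rule, was present on all 4 arrays, with 339.8 and 320.6 in mTert 1 and 2 and 305.8 and 391.2 in control 1 and 2. Whether the 2 probe sets keep the strands apart was not tested.

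Hoxa10 and Hoxd10, which act at the level of the lumbar spine and the thigh, were also present throughout. Hoxa10 had signals of 578.2 and 874.3 in mTert 1 and 2, against 659.7 and 773.3 in control 1 and 2. The mTert arrays held both the lowest and the highest Hoxa10 signal, and the arrays numbered 2 were the higher of each construct. Hoxd10 had 352.6 and 360.7 in mTert 1 and 2, against 346.8 and 399.5 in control 1 and 2, a narrow range with no separation of the constructs.

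Hoxa9, best known for its part in blood stem cells and leukaemia, was read by 2 probe sets that disagreed on detection. The brighter on average, 1421579_at, was absent on all 4 arrays, with 473.9 and 489.1 in mTert 1 and 2 and 412.5 and 416.2 in control 1 and 2. The other, 1455626_at, was present on all 4, with 420.3 and 529.9 in mTert 1 and 2 and 321.1 and 310.9 in control 1 and 2. On both probe sets each mTert array read higher than each control array. Of the other group 9 genes, Hoxd9 was present on control 1 only and marginal on mTert 1. Its signals were 232.9 and 170.7 in mTert 1 and 2 and 209.3 and 181.3 in control 1 and 2. Hoxb9 and Hoxc9 were absent throughout.

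Group 8 was the only one below 9 with present calls on all 4 arrays. Hoxc8 and Hoxd8 act with their paralogue Hoxb8 in patterning the lower thoracic skeleton. Hoxc8 had signals of 185.8 and 243.6 in mTert 2 and control 2, against 388.2 and 403.8 in mTert 1 and control 1. Hoxd8 had 304.1 and 383.7 in mTert 2 and control 2, against 497.3 and 444.2 in mTert 1 and control 1. For both genes the 2 arrays numbered 2 lay below the 2 arrays numbered 1, whatever the construct.

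The 2 anterior genes detected were close to the limit of detection. Hoxa2, which specifies the second pharyngeal arch, was present on mTert 1 (65.2) and control 1 (60.9) and absent on mTert 2 (52.6) and control 2 (46). Hoxb1, which specifies a segment of the hindbrain, was present on mTert 1 (87.8), mTert 2 (53.6) and control 2 (70.8) and absent on control 1 (62.3). Over all 4 arrays the coefficient of variation of the 11 detected probe sets lay between 6.51% for Hoxd10 and 35.2% for Hoxc8, with a median of 15.2%. After Hoxc8 came Hoxa9 (1455626_at) at 25.9%, Hoxb1 at 21.3% and Hoxd8 at 20.4%.

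**Figure D2:**
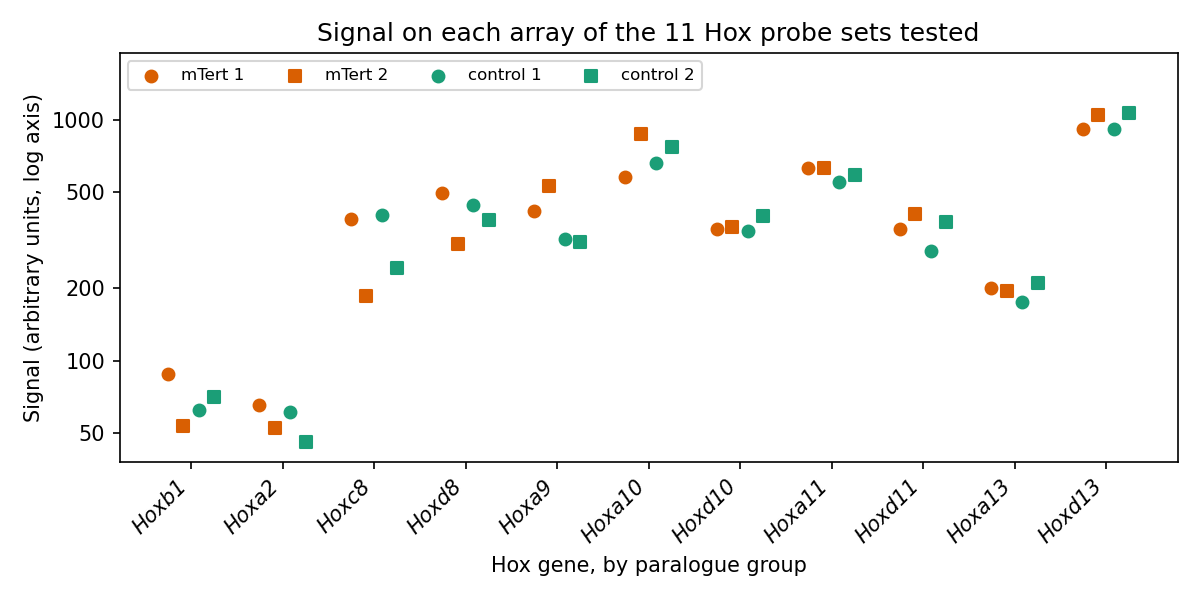
Signal on each of the 4 arrays (log axis, arbitrary units) for the 11 Hox probe sets called present on at least 2 arrays, in order of paralogue group. Orange points are mTert, green points control, circles number 1 and squares number 2. Of the 11, 7 separate by number, Hoxc8 among them, and 2 by construct, Hoxa9 and Hoxa11. Of all 12396 tested probe sets, 39.8% separate by number and 25.5% by construct.

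The other 25 probe sets were called present on no array, and no detection p-value among them was under 0.0806. Their signals ranged from 2.1 to 489.1. The mean over the 4 arrays was under 50 for 11 of them and over 200 for 4. Those 4 were the second Hoxa9 probe set, Hoxb2 (197.2 to 285.7) and 2 of the 3 Hoxc6 probe sets (257.4 to 392.6). An absent call at such signals leaves the gene undecided. Hoxc6 was absent on its remaining probe set as well (6.3 to 17.7).

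In HoxA the absent genes were Hoxa3, Hoxa4, Hoxa5 and Hoxa7, with signals from 6.6 (Hoxa4) to 101.5 (Hoxa5). In HoxB the absent genes besides Hoxb2, Hoxb9 and Hoxb13 were Hoxb3, Hoxb4, Hoxb5, Hoxb6 and Hoxb7, none with a signal over 149.6. In HoxC, Hoxc4, Hoxc5, Hoxc6, Hoxc9 and Hoxc13 were absent, and in HoxD, Hoxd1 (12.5 to 49.8) and Hoxd12. The 3 probe sets annotated with 2 Hox symbols each (Hoxd4 with Hoxd3, read by 2, and Hoxb8 with Hoxb7) are outside the rule and were also absent on all 4 arrays. The genes that flank the clusters gave another picture. Of 24 flanking genes with a probe set, 3 on each side of each cluster, 18 were called present on all 4 arrays. Over all annotations on the array, with unlisted probe sets counted together as 1, that held for 6890 of 12859. The even-skipped homologues Evx1 and Evx2, which adjoin HoxA and HoxD, were absent on all 4.

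The comparison of mTert with control addresses what the telomerase subunit does to expression in these cells, and it showed no Hox gene past the threshold. The test was limma on log2 signal over all 12396 detected probe sets, with p-values adjusted by Benjamini and Hochberg. It called 0 of 11 Hox probe sets at an adjusted p under 0.05, against 0 of 12396 in all (0%). The smallest limma adjusted p of all was 0.188. The probe set of Tert, the transgene's own gene, was among the 12396 and was not called either. The fit had no term for the array number, so differences between the numbers added to its scatter. With 2 arrays per construct, 0 calls therefore do not show that Hox expression was unchanged. At an unadjusted p under 0.05 there was 1 of the 11 Hox probe sets, higher in mTert, against 260 of all (2.1%, with 0.847% higher and 1.25% lower). All 11 limma adjusted p-values were 1.00. The median log2 difference, mTert minus control, was 0.038 over the 11 and 0.0060 over all, and 6 of the 11 were higher and 5 lower in sign, against 51.9% and 48.1% of all. In size the median difference was 0.086 over the Hox probe sets, against 0.096 over all.

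Hoxa9 (1455626_at) was the probe set with the unadjusted p under 0.05. Its signal averaged 475.1 ± 77.5 in mTert and 316 ± 7.21 in control (SD, n = 2 arrays each). The log2 difference was 0.58 (SE 0.17; limma unadjusted p = 0.0157, adjusted p = 1.00), rank 78 of all probe sets by p. The spread was wider in mTert, where mTert 2 stood above mTert 1. The difference was 0.77 between the arrays numbered 2 and 0.39 between those numbered 1. The absent probe set for the same gene gave 0.22, fitted with no filter on calls.

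The constructs did not overlap for Hoxa9 and Hoxa11, both higher in mTert. That makes 2 of 11 Hox probe sets (18.2%), against 25.5% of all 12396 (13.4% higher and 12.1% lower), a share near the background. Hoxa11 averaged 633.75 ± 0.212 in mTert and 570.75 ± 26.2 in control, a log2 difference of 0.15 (SE 0.13). The other 9 probe sets had log2 differences from -0.22 (SE 0.40, Hoxc8) to 0.21 (SE 0.20, Hoxd11). The posterior genes Hoxd13 (-0.02, SE 0.14), Hoxa13 (0.04, SE 0.20), Hoxd10 (-0.06, SE 0.16) and Hoxa10 (-0.01, SE 0.22) sat near 0.

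The comparison of arrays numbered 2 with arrays numbered 1 covers a difference that the labels do not explain, and here single Hox genes varied more. limma called 192 of 12396 probe sets (1.55%), 131 higher (1.06%) and 61 lower (0.492%) on the arrays numbered 2, and 0 of the 11 Hox probe sets. At an unadjusted p under 0.05 there were 3 Hox probe sets (27.3%), 1 higher and 2 lower, against 1305 of all (10.5%, with 5.44% higher and 5.09% lower). The median difference in size was 0.264 over the Hox probe sets and 0.121 over all. The groups did not overlap for 7 of 11 (63.6%), 4 higher and 3 lower on the arrays numbered 2, against 39.8% of all (20.3% higher and 19.5% lower). One of the 3 lower, Hoxa2, entered the test only through its present calls on the arrays numbered 1, so its place in this count is no support.

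Hoxc8 had the largest difference of the 11. Its signal averaged 214.7 ± 40.9 on the arrays numbered 2 and 396 ± 11 on those numbered 1 (SD, n = 2 arrays each). The log2 difference was -0.90 (SE 0.18; limma unadjusted p = 0.00118, adjusted p = 0.0646), with -1.06 within mTert and -0.73 within control. It was rank 223 by p and missed the threshold. With construct as a further term in the fit, its limma adjusted p was 0.020, and it was the only Hox probe set called. Over the alternatives its adjusted p ran from 0.020 to 0.260, and the difference was negative in each. In bulk RNA, fewer cells of a type and less RNA per cell cannot be told apart, which holds for Hoxc8 as for the genes below.

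Hoxd8 followed in the same direction. It averaged 343.9 ± 56.3 on the arrays numbered 2 and 470.75 ± 37.5 on those numbered 1, a log2 difference of -0.46 (SE 0.17; limma adjusted p = 0.337). In the opposite direction Hoxa10 averaged 823.8 ± 71.4 on the arrays numbered 2 and 618.95 ± 57.6 on those numbered 1, a log2 difference of 0.41 (SE 0.13; limma adjusted p = 0.273). These 3 genes were those with an unadjusted p under 0.05.

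Hoxd13 averaged 1063.1 ± 16.5 on the arrays numbered 2 and 919.85 ± 1.48 on those numbered 1, a log2 difference of 0.21 (SE 0.11; limma adjusted p = 0.580). Hoxd11 gave 0.30 (SE 0.17; limma adjusted p = 0.604) and Hoxd10 0.12 (SE 0.15; limma adjusted p = 0.873), both also without overlap. Hoxa2 was -0.36 (SE 0.31), with both arrays numbered 2 called absent. Hoxb1 (-0.26, SE 0.32), Hoxa9 (0.14, SE 0.26), Hoxa13 (0.10, SE 0.19) and Hoxa11 (0.05, SE 0.14) overlapped between the numbers.

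Read along the clusters, all 4 tested probe sets of paralogue groups 1 to 8 averaged lower on the arrays numbered 2, and all 7 of groups 9 to 13 averaged higher, where 49.9% of all tested probe sets were lower and 50.1% higher in sign. The medians were -0.41 and 0.14 on the log2 scale. The 4 include Hoxa2, which entered through the arrays numbered 1. Present on all 4 arrays were only 2 of the 4, Hoxc8 and Hoxd8 (median -0.68), and all 7 of groups 9 to 13. This split was chosen after the values were seen and carries no test, and 10 of the 11 differences behind it missed an adjusted threshold in every alternative. The undetected Hox probe sets did not divide in this way: 8 of 19 in groups 1 to 8 and 2 of 7 in groups 9 to 13 read higher on the arrays numbered 2. Of the 7 in groups 9 to 13, 5 were higher when mTert 2 or control 1 was left out. Within single pairs of arrays, 4 of 4 in groups 1 to 8 were lower and 6 of 7 in groups 9 to 13 higher in mTert. The 6 include Hoxa11, which hardly differed, with 633.9 on mTert 2 and 633.6 on mTert 1. In control, 3 of 4 were lower and 6 of 7 higher.

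**Figure D3:**
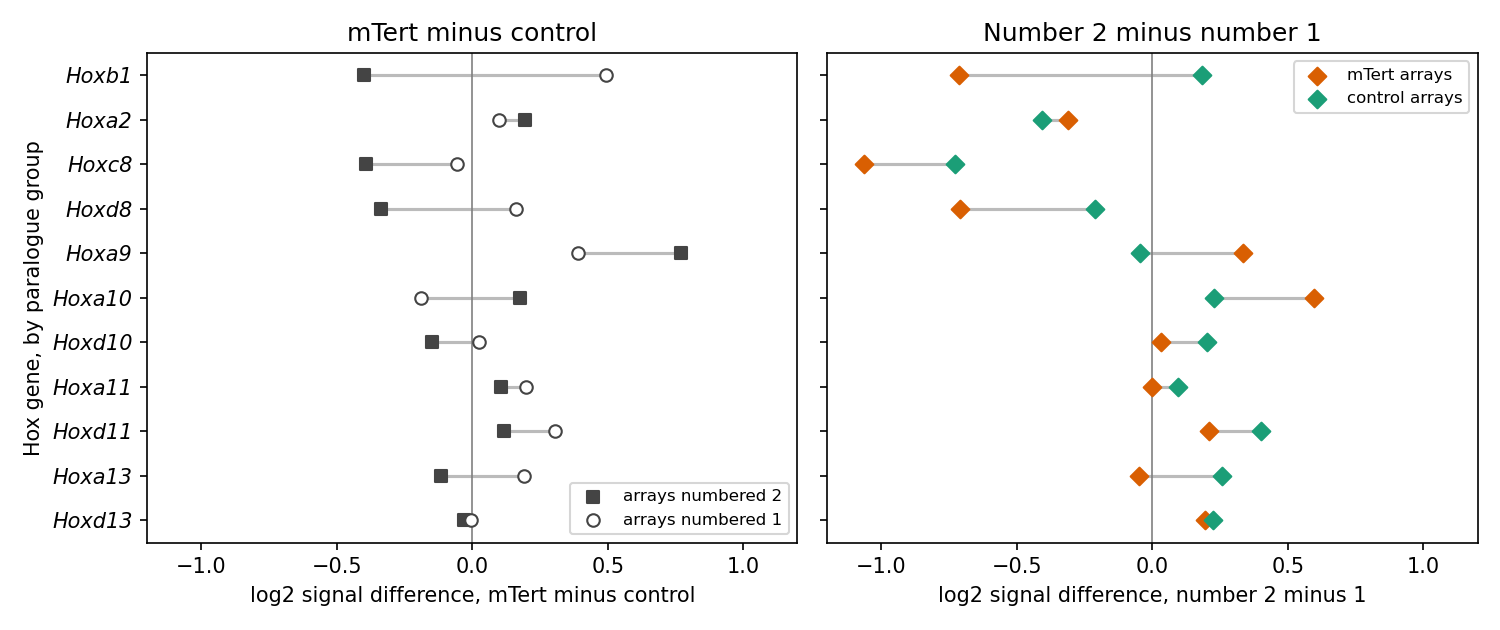
Log2 signal difference of the 11 Hox probe sets within single pairs of arrays, in order of paralogue group. Left, mTert minus control among the arrays numbered 2 and 1, where only Hoxa9, Hoxa11, Hoxa2, Hoxd11, Hoxc8 and Hoxd13 keep one sign; right, number 2 minus number 1 within mTert and control, where Hoxc8 lies lowest overall at -1.06 and -0.73.

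Macrophage markers moved with the array number. All 13 probe sets of the 9 macrophage markers were called higher by limma on the arrays numbered 2, with a median log2 difference of 2.09. Of the 13, 5 (C1qa, Cd14, Mpeg1 and 2 of Csf1r) were present on the arrays numbered 2 alone and so entered the test through the group where they are high. The other 8 were present on all 4 arrays, and all 8 were called higher, with a median of 1.96. Over all 13 probe sets, those 5 included, the summed signal was 15730.8 and 15064.4 on mTert 2 and control 2. On mTert 1 and control 1 it was 4026.5 and 3650.9. C1qa, a complement gene, had 1394.9 and 1189 on mTert 2 and control 2, against 39.8 on each of mTert 1 and control 1. Of the 19 tested fibroblast probe sets, 9 were higher and 10 lower in sign on the arrays numbered 2, with a median of -0.0085. None was called higher and 2 were called lower, the surface protein Thy1 at -0.68 (limma adjusted p = 0.0128) and the protease Fap at -0.94 (limma adjusted p = 0.0468). At an unadjusted limma p under 0.05, 0 of the 19 were higher and 6 lower, against 5.44% and 5.09% over all probe sets. The summed signal of the 12 fibroblast genes was 119326 and 124009 on mTert 2 and control 2, against 119911 and 127120 on mTert 1 and control 1. The brightest probe sets, such as those of Col1a2 and Vim, weigh most in this sum, so it can hide falls in dimmer markers.

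The part of the macrophage signal in the Hox differences was not tested. Of the markers of other tissues the detected genes were 1 of 7 epithelial, 2 of 5 endothelial, 1 of 5 skeletal muscle, 1 of 7 neural and glial and 3 of 4 cartilage genes on the array. Over all annotations, 7658 of 12859 were detected. The single erythroid gene and the 3 rostral and craniofacial genes were not detected. In cartilage, the matrix protein gene Comp was called higher on the arrays numbered 2, by 1.19 (limma adjusted p = 0.00204).

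**Figure D4:**
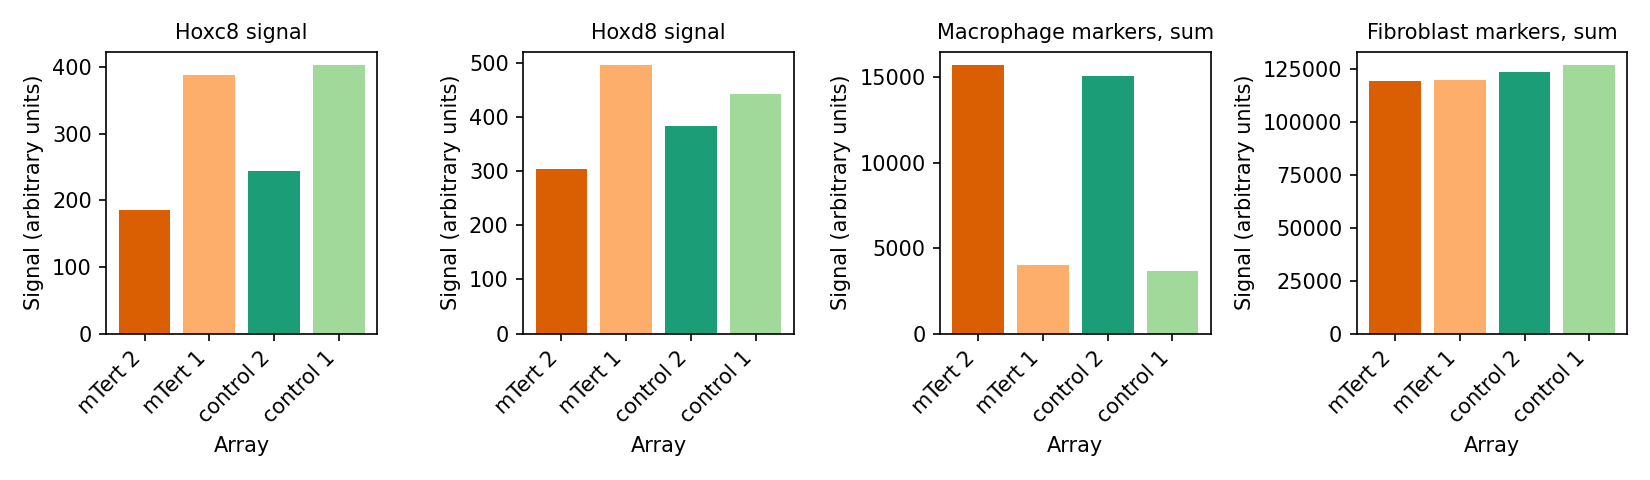
Signal of Hoxc8 and Hoxd8 and summed signal of the macrophage and fibroblast marker lists on each array, with bars from 0. Hoxc8 and Hoxd8 are lower on mTert 2 and control 2, where the macrophage sum is 15730.8 and 15064.4, while the fibroblast sums lie between 119326 and 127120 on all 4 arrays. The brightest probe sets weigh most in the fibroblast sum, so it can hide falls in dimmer markers such as Thy1 and Fap.

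Partners of the Hox proteins were detected for 5 of 8 genes, near the 7658 of 12859 over all annotations, and did not pass the test. Of 8 TALE cofactor genes with a probe set, Meis2, Pbx2, Pbx3 and Pknox1 were present on all 4 arrays and Meis3 on 2, while Meis1 and Pbx4 were absent. None of the 7 tested probe sets was called in either comparison. The median log2 difference was 0.11 for mTert against control and -0.09 for number 2 against number 1. Meis2, a limb and forebrain regulator, had 366 and 411.6 on mTert 2 and control 2, against 547.5 and 475.4 on mTert 1 and control 1, a log2 difference of -0.40 (SE 0.15; limma adjusted p = 0.370).

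The chromatin factors that set Hox states were mostly detected. Of the 26 Polycomb genes with a probe set, 22 were present on all 4 arrays, against 6890 of 12859 over all annotations. None of their 37 tested probe sets was called. Their medians were -0.03 for mTert against control and -0.0023 for number 2 against number 1. Of the Trithorax and MLL list, 13 of 14 genes were tested, against 7658 of 12859 over all annotations. Their 16 tested probe sets had 0 calls and medians of 0.0072 and -0.0012. Genes of retinoic acid synthesis, binding and reception, which relay the signal that induces anterior Hox genes, had 9 tested probe sets and 0 calls. The binding protein gene Crabp1 had 1126.7 and 732.6 on mTert 2 and control 2, against 1722.3 and 1350.5 on mTert 1 and control 1, a log2 difference of -0.75 (SE 0.21; limma adjusted p = 0.172). The 30 tested probe sets of the flanking genes had medians of 0.0054 and -0.01 and 0 calls.

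Other regulators of axial and limb position were detected in part. Of 42 genes with a probe set, 18 were tested and 14 were present on all 4 arrays, against 6890 of 12859 over all annotations. Among the 14 were the limb mesenchyme genes Prrx1, Prrx2, Msx1, Lhx2, Lhx9 and Tbx15. Hand2, Shox2, Lmx1b, Msx2, Alx4, Tbx2 and Isl1 of the same list were absent on all 4. The hindlimb gene Tbx4 was present on all 4, with 430.4 and 406.3 in mTert 1 and 2 and 444 and 485.1 in control 1 and 2. The forelimb gene Tbx5 and the hindlimb gene Pitx1, each read by 2 probe sets, were absent on all 4. Head regulators were mostly undetected, with 1 of 11 genes tested, Dlx2, against 7658 of 12859 over all annotations.

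None of the 25 probe sets of this axial and limb list was called in either comparison. For mTert against control, 8 were higher and 17 lower in sign, with a median of -0.05. For number 2 against number 1, 10 were higher and 15 lower in sign, with a median of -0.21. At an unadjusted p under 0.05, 2 of the 25 were higher and 8 lower, against 5.44% higher and 5.09% lower over all probe sets. All 4 Prrx1 probe sets were among the 8 lower. They read 1 gene, so the 8 are not separate genes and the shares do not compare directly. Irx3, a homeobox gene of proximal limb patterning, had 610.5 and 679.1 on mTert 2 and control 2, against 957.3 and 1031.6 on mTert 1 and control 1. Its log2 difference was -0.63 (SE 0.12; limma adjusted p = 0.0561), the smallest adjusted p of the list. Twist2, a mesenchymal regulator, gave -0.78 (SE 0.16; limma adjusted p = 0.0646), 1 of the 4 Prrx1 probe sets -0.70 (SE 0.16; limma adjusted p = 0.100) and Irx5 -0.47 (SE 0.13; limma adjusted p = 0.182). The other 3 Prrx1 probe sets gave -0.24 to -0.33. These 4 genes, named for their small p, read lower on both arrays numbered 2, as Hoxc8 and Hoxd8 did.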

How the data were processed

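RNA of 4 samples was read on 4 MOE430A arrays, grouped and numbered by their titles. The authors deposited 1 signal intensity per probe set and array, with a present, marginal or absent call, and a detection p-value for each, per the file headers. No source used here names the software behind them. Intensities in the authors' series table were identical (largest difference 0). The number of arrays limits the precision.

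GEO's platform annotation gave 1 symbol to 20380 probe sets and several to 691, and lacked 1555. Signals are printed as deposited. For tests, each array was scaled to a common mean, trimmed by 2% at each end, over the 22626 probe sets left without the 64 controls. Values were then put on the log2 scale, with 1 signal at 0 set to the array's lowest present signal. The 12396 probe sets present on at least 2 arrays were fitted with limma 3.58.1 in R 4.3.3 (lmFit and trended eBayes; the prior degrees of freedom were 4.13 for mTert against control and 6.05 for the numbers), adjusted over all of them at a threshold of 0.05. The fit of mTert against control was also run on simulated data, which held no difference between the array numbers. The comparison of the numbers was not simulated.

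Alternatives changed the normalization, filter, pseudocount (50), trend, terms and arrays. All members detected were named, and of each further list up to 4 members with the smallest p, with others chosen after their values were seen. Members and lists were chosen with earlier results of these data known. Sequences, gene names and order came from RefSeq tables (GRCm38.p6).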

Additional observations from a re-analysis of the deposited data

Results flagged for a closer look

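For 6 of the 11 tested Hox probe sets, single pairs of arrays moved in opposite directions under the same contrast (54.5%, against 68.1% of all 12396 probe sets). By contrast, this held for 5 of 11 for mTert minus control (45.5%, against 55.4% of all) and for 3 of 11 for number 2 minus number 1 (27.3%, against 47.5% of all). Each value below is a difference of 2 differences on the log2 scale, taken as mTert 2 minus control 2, less mTert 1 minus control 1. Each rests on 1 array per construct and number, so these differences were not tested, and their causes were not tested either.

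For Hoxa10 the mTert minus control difference was positive among the arrays numbered 2 and negative among those numbered 1, a gap of 0.37. Hoxd8 ran the other way, with a gap of -0.50, and so did Hoxd10, with -0.17. For Hoxa9 it was the number 2 minus number 1 difference that had opposite signs, positive in mTert and negative in control, with a gap of 0.38. Hoxa13 (-0.30) and Hoxb1 (-0.90) had opposite signs in both contrasts, and Hoxb1 lay near its detection limit.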

How the results depend on the processing

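Leaving out 1 array sets a lone array against both others and so mixes construct with number. Each such fit assumes that the lone array varies like the other group. Probe sets called between mTert and control stayed at 0 in all settings but 1. That setting adds the number 1 or 2 as a replicate block and called 18 (3 higher, 15 lower, 0 Hox), although the number 2 minus 1 differences of mTert and control correlated at 0.373 over the 12396 probe sets, over only 2 pairs whose link the labels do not state. For number 2 against number 1, the 192 calls became 94 with no filter on calls, 120 with presence on all 4 arrays required, 80 without the intensity trend and 353 with a construct term. Leaving out 1 array gave 80 to 206, with 80 without mTert 2 and 91 without control 2. The Hox median for the numbers was -0.16 with no filter on calls, which takes in the 26 undetected probe sets, and ran from -0.051 (without control 1) to 0.146 when 1 array was left out. That for mTert against control ran from 0.012 to 0.152, the last without mTert 2. Detected Hox probe sets numbered 8 at a detection p under 0.01.

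When 1 array was left out, log2 differences took both signs for some genes. For mTert against control the ranges were -0.057 to 0.35 for Hoxa2, -0.30 to 0.29 for Hoxa10, -0.090 to 0.17 for Hoxa13, -0.31 to 0.40 for Hoxb1, -0.76 to 0.31 for Hoxc8, -0.44 to 0.27 for Hoxd8, -0.16 to 0.040 for Hoxd10 and -0.13 to 0.094 for Hoxd13. For the numbers they were -0.24 to 0.53 for Hoxa9 and -0.053 to 0.15 for Hoxa11. Outside these fits no single Hox difference changed sign. Causes were not tested.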
